A study of Mus musculus with 8 samples.

Results

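The set described here holds 9 genes grouped as features of mature olfactory sensory neurons outside the odorant transduction cascade. It was followed across sorted cells of the mouse main olfactory epithelium. In the cells labelled as mature, Fabp5 was lower and Rgs11 nearly level, against that name. The 9 genes are S100a5, Scgn, Pcp4l1, Umodl1, Stoml3, Kcnmb3, Rgs11, Cidea and Fabp5, of the 22553 genes in the deposited table. They were picked by name, with their footprint and RNA counts, their footprints per RNA read and the ratios between groups in view, so every value below is a description of these genes and no test of them.

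Ribosome footprints, the pieces of mRNA shielded by translating ribosomes, and input RNA had been sequenced from 4 groups of sorted cells. The Ngn1-GFP groups carried an Ngn1-GFP transgene and are labelled as immediate neuronal precursors together with immature olfactory neurons. The OMP-GFP groups carried the OMP-ires-GFP allele and are labelled as mature olfactory sensory neurons. Controls of either kind were Mex3a fl/fl or fl/+ mice without Cre, and knockouts (KO) were Mex3a fl/fl mice that carried a Cre allele. The KO groups therefore differ from their controls by the Cre allele as well as by the deletion of Mex3a, whose product binds RNA through KH domains. A label of the OMP-GFP KO names OMP-ires-Cre where its description names OMP-ires-GFP, and the group was taken by the description. The sources used here give no age, sex or number of animals behind a library. The labels list 8 footprint libraries, 2 per group, but the table holds 1 column per group and assay, so no value has a spread between replicates and no difference has a replicate check.

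Olfactory sensory neurons are renewed throughout life from basal cells. Ngn1-expressing precursors become immature neurons, and cells that reach maturity begin to express Omp, grow cilia and send signals through a cyclic AMP cascade. Calcium enters the cilia during that signal, and mature neurons also express calcium-binding proteins, ciliary membrane proteins and regulators of G-protein signalling that are not themselves steps of the cascade. S100a5 and Scgn (secretagogin) are EF-hand calcium-binding proteins, and Pcp4l1 is a small protein with an IQ motif, the kind of motif that binds calmodulin. Umodl1 (uromodulin-like 1, also called olfactorin) is a cell-surface protein with a zona pellucida domain, Stoml3 is a stomatin-family membrane protein of olfactory cilia, and Kcnmb3 is a regulatory beta subunit of the BK calcium-activated potassium channel. Rgs11 is a GTPase-activating protein for G-protein alpha subunits, Cidea is a lipid droplet protein, and Fabp5 is a fatty acid-binding protein.

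The promoter windows of 6 of the 9 genes were found in a RefSeq table of the GRCm38.p6 build, each with 250 bases before an annotated start and 50 after it. Those of Fabp5, Rgs11 and Cidea were not used here. Windows were searched on both strands for CCCNNGGG, the palindromic core of sites bound by Ebf factors, for TAATTA and TAATGA, homeodomain-type letters, and for TATAAA, the TATA box. Of 32851 windows of this length in the table, 13.7% held CCCNNGGG, 5.29% TAATTA, 9.78% TAATGA and 13.6% TATAAA. The Umodl1 window held CCCNNGGG at 156 bases and TAATGA at 119 bases before the start, the Stoml3 window TAATGA at 243 bases before it, and the Pcp4l1 window TATAAA at the start itself. None of these letters was found in the windows of S100a5, Scgn or Kcnmb3. The S100a5 window lies wholly inside the gene, which runs from 90606480 to 90611784. The Kcnmb3 window (32491920 to 32492219, minus strand) also lies wholly inside its gene, which runs from 32465146 to 32502896. For S100a5 and Kcnmb3 the bases before the outer end of the gene were therefore not searched. The motifs found do not overlap each other, and a match is only a match of letters. The windows of S100a5, Umodl1 and Stoml3 are printed because these genes carried most of the footprints of the set, and that of Pcp4l1 because it holds the only TATAAA. Capitals mark the letters of a motif found, and each is written 5′ to 3′ on the gene's strand.
S100a5, chr3:90608272-90608571, plus strand: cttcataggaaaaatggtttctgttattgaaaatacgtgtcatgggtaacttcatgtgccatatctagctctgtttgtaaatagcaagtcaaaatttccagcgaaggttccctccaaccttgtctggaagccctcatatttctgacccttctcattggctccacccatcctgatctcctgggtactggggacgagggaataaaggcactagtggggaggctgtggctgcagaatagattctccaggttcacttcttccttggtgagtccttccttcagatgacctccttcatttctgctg
Umodl1, chr17:30954433-30954732, plus strand: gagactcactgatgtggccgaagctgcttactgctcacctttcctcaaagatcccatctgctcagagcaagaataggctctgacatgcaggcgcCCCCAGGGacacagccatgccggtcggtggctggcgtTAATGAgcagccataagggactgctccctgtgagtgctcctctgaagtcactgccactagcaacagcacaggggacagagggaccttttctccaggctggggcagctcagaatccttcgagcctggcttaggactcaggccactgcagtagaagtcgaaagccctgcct
Stoml3, chr3:53488457-53488756, plus strand: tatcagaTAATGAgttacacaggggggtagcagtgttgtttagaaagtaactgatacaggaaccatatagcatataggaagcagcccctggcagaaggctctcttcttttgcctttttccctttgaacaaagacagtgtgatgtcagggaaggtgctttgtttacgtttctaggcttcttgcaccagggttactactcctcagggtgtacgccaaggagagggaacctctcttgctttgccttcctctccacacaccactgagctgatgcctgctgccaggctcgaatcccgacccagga
Pcp4l1, chr1:171196219-171196518, minus strand: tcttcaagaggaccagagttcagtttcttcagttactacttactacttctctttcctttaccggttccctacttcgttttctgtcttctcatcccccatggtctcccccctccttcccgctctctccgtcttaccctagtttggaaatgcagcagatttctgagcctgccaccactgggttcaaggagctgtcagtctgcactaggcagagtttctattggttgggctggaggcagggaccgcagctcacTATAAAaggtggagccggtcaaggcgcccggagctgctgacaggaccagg

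Values are given throughout for control then KO, with the Ngn1-GFP pair before the OMP-GFP pair. The columns held 4456989, 3031489, 3576406 and 4100841 footprints and 89327877, 27786809, 31855259 and 26946592 RNA reads over coding sequences. Levels are counts divided by TMM-scaled library sizes (CPM), in which 3 footprints are worth 0.609, 0.938, 0.881 and 0.811 CPM. Brackets hold 95% intervals, which cover counting error only and treat PCR copies of a read as separate molecules. The deleted gene followed its labels, with 437, 28, 16 and 5 Mex3a footprints and 9645, 656, 387 and 38 RNA reads. Scaled for depth, Mex3a RNA stood at 107, 22.5, 12.4 and 1.46 CPM, 4.75-fold and 8.51-fold lower in the KO. Mex3a footprints were 10.1-fold and 3.48-fold lower. The latter rests on 16 and 5 footprints, with a log2 ratio of -1.80 [-3.60, -0.28]. The RNA of the Ngn1-GFP control had 619 genes at least 8-fold above each of the other 3 columns, against 16, 1 and 5 such genes in the other columns. The KO groups also differed from their controls in RNA of another cell type. Footprints of a list of 12 sustentacular cell markers, the supporting cells of the epithelium, summed to 6572, 945, 224 and 778 CPM and their RNA to 1203, 251, 101 and 372 CPM. All 12 had footprints in every column. A list of 12 markers of Bowman's and nasal glands summed to 570, 1075, 106 and 605 CPM of footprints, and 1 of them, Obp1b, had no footprint in the Ngn1-GFP KO, the OMP-GFP control or the OMP-GFP KO. Their part in the results below was not tested.

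All 9 genes were measured in every column, with footprint counts from 10 for Fabp5 in the OMP-GFP KO to 18972 for Umodl1 in the same column. Together they made up 0.537%, 0.654%, 1.12% and 1.16% of footprints and 0.443%, 0.507%, 0.822% and 0.922% of RNA reads. S100a5, Umodl1 and Stoml3 were among the abundant messages of these cells, and the other 6 were far lower.

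**Figure D1:**
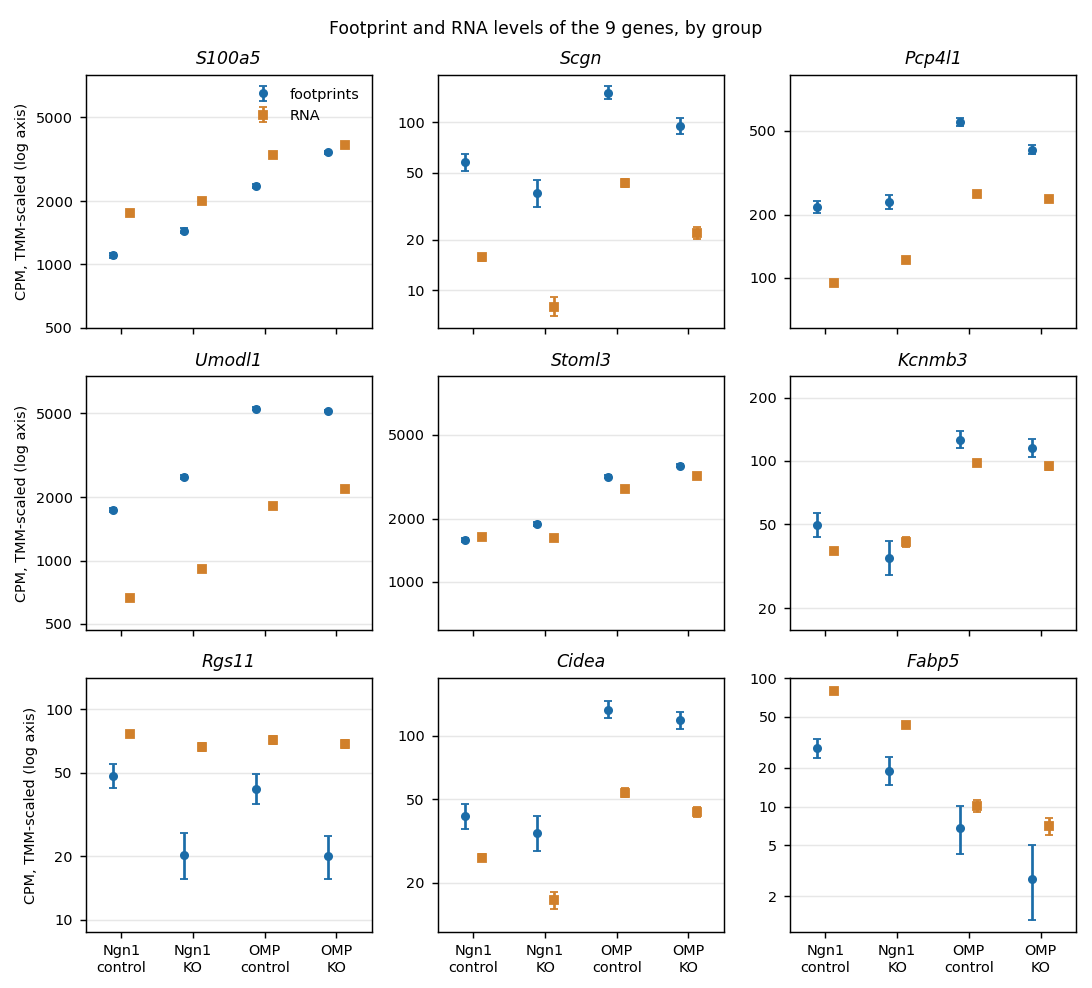
Footprint and RNA levels of the 9 genes in the 4 groups, as TMM-scaled CPM on a log axis with 95% counting intervals. S100a5, Umodl1 and Stoml3 lie at 662 CPM or more in every column, and Fabp5 is the only gene whose OMP-GFP points lie well below its Ngn1-GFP points.

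Among the calcium-binding proteins, S100a5 lies on chromosome 3 (90606480 to 90611784) with a coding length of 282 bases. It had 5452, 4630, 8064 and 12630 footprints, or 1108, 1448, 2369 and 3414 CPM. Its RNA stood at 158833, 58586, 102990 and 95712 reads, or 1763, 2011, 3304 and 3676 CPM. Both OMP-GFP columns were above both Ngn1-GFP columns in either assay, and in either population the KO column was the higher. Per length, the deposited footprint RPKM of 4338, 5416, 7996 and 10921 placed it between rank 5 and rank 7 of all genes, and the deposited RNA TPM of 8040, 10788, 16501 and 17823 at rank 5 in the Ngn1-GFP control and rank 2 in the other columns.

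Scgn (chromosome 13, 23953456 to 23991327, coding length 831 bases) had 285, 121, 511 and 352 footprints, or 57.9, 37.8, 150.1 and 95.2 CPM. Its RNA counts were 1415, 233, 1350 and 573, or 15.7, 8.0, 43.3 and 22.0 CPM. Scgn was higher in OMP-GFP cells and lower in the KO of each population, so that the OMP-GFP control held its highest level and the Ngn1-GFP KO its lowest in both assays. Pcp4l1 (chromosome 1, 171173264 to 171196268, coding length 207 bases) had 1069, 734, 1873 and 1503 footprints, or 217, 229.6, 550.3 and 406 CPM. Pcp4l1 RNA stood at 8545, 3549, 7767 and 6187 reads, or 94.8, 122, 249 and 238 CPM. Both OMP-GFP columns of Pcp4l1 were above both Ngn1-GFP columns, while the KO column was not on the same side of the control in the 2 populations.

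Among the membrane proteins, Umodl1 (chromosome 17, 30954648 to 31010710) has the longest coding sequence of the 9, at 4047 bases. It had 8519, 7977, 17956 and 18972 footprints, or 1731, 2495, 5275 and 5129 CPM. Its RNA counts were 59695, 26525, 56482 and 57175, or 662, 911, 1812 and 2196 CPM. Umodl1 took more footprints than any of the other 8 genes in every column, but per length it was below S100a5, Stoml3 and Pcp4l1, with a deposited footprint RPKM of 472, 650, 1241 and 1143.

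Stoml3 (chromosome 3, 53488707 to 53508863, coding length 864 bases) had 7786, 6024, 10780 and 13195 footprints, or 1582, 1884, 3167 and 3567 CPM. Stoml3 RNA stood at 147220, 47156, 86137 and 83130 reads, or 1634, 1619, 2764 and 3192 CPM. The 2 populations were well apart for Stoml3, and the KO and control columns of 1 population lay close together. Kcnmb3 (chromosome 3, 32465146 to 32502896, coding length 720 bases) was a low-count gene with 245, 111, 430 and 426 footprints, or 49.8, 34.7, 126 and 115 CPM. Its RNA counts were 3376, 1204, 3043 and 2454, or 37.5, 41.3, 97.6 and 94.2 CPM. Kcnmb3 was likewise higher in both OMP-GFP columns, and only its footprints, not its RNA, were lower in the Ngn1-GFP KO than in the control.

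The G-protein regulator Rgs11 (chromosome 17, 26202527 to 26211324, coding length 1401 bases) had 237, 65, 143 and 74 footprints, or 48.15, 20.3, 42.0 and 20.01 CPM. Its RNA counts were 6907, 1926, 2223 and 1780, or 76.6, 66.1, 71.3 and 68.4 CPM. The RNA of Rgs11 was nearly level over the 4 columns, and its footprints split by genotype, with both KO columns below both controls.

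Of the lipid proteins, Cidea (chromosome 18, 67343564 to 67367794, coding length 654 bases) had 204, 110, 452 and 438 footprints, or 41.4, 34.4, 133 and 118 CPM. Cidea RNA stood at 2371, 481, 1674 and 1133 reads, or 26.3, 16.5, 53.7 and 43.5 CPM, so that Cidea too was higher in OMP-GFP cells. Fabp5 (chromosome 3, 10012585 to 10016610, coding length 408 bases) ran the other way, with 140, 61, 23 and 10 footprints, or 28.4, 19.1, 6.76 and 2.70 CPM. Fabp5 RNA stood at 7174, 1258, 315 and 183 reads, or 79.6, 43.2, 10.1 and 7.03 CPM. The Ngn1-GFP control held the highest Fabp5 level and the OMP-GFP KO the lowest in both assays. Coordinates are those of the RefSeq annotation of GRCm38.p6, the mm10 build, and 4 of the 9 genes lie on chromosome 3 with Mex3a (88531946 to 88541394). S100a5 (90606480 to 90611784) is the nearest of the 4 to Mex3a. Any part of that position in its KO ratios was not tested.

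The comparison of OMP-GFP with Ngn1-GFP cells asks how far each gene goes with neuronal maturity. In both assays and both genotypes, 7 of the 9 genes were higher in OMP-GFP cells by TMM scaling, Fabp5 was lower in all 4 comparisons, and Rgs11 was nearly level. In controls, footprints of 7 genes were at least 2-fold higher in OMP-GFP cells, where 6.44% of the 12387 genes with at least 20 footprints in the pair were that much higher, and 1 gene was at least 2-fold lower, where 18.1% were. The choice of the genes used this contrast, so nothing is read from these counts. The median log2 ratio of the 9 was 1.34, against -0.02 for all genes measured. In bulk samples a lower share of cells of a type and less RNA per cell cannot be told apart.

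In control cells the lipid droplet protein Cidea had the highest footprint ratio, 3.20-fold, with a log2 ratio of 1.68, above that of 99.7% of the genes with at least 100 footprints in the pair. Umodl1 followed at 3.05-fold. Scgn (2.59-fold), Kcnmb3 (2.54-fold) and Pcp4l1 (2.53-fold) were close to each other, then came S100a5 (2.14-fold) and Stoml3. Stoml3 sat on the 2-fold line at a log2 ratio of 1.002, and lay at 0.99 with DESeq2 size factors and at 0.79 with library size alone. S100a5 lay at 0.88 with library size alone, which left 5 genes at least 2-fold higher. Rgs11 stood at -0.20 [-0.51, 0.11], an interval that includes 0. Fabp5 footprints were 4.21-fold lower in OMP-GFP cells, at -2.07 [-2.78, -1.43].

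RNA gave the same grouping. In controls, 5 of the 9 were at least 2-fold higher in OMP-GFP cells (3.57% of 16150 genes measured were) and 1 at least 2-fold lower (23.7% were). Scgn was 2.76-fold higher, Umodl1 2.74-fold, Pcp4l1 2.63-fold, Kcnmb3 2.61-fold and Cidea 2.04-fold, while S100a5 (1.87-fold) and Stoml3 (1.69-fold) stayed under the line. Cidea RNA lay at 0.985 with library size alone, short of 2-fold. Fabp5 RNA was 7.88-fold lower and Rgs11 RNA 1.07-fold lower. Omp, the gene that marks the OMP-GFP population, was itself 1.11-fold higher in footprints and 1.31-fold higher in RNA in OMP-GFP controls. It had 12596, 8806, 9663 and 14732 footprints, which are plentiful in the Ngn1-GFP columns too.

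**Figure D2:**
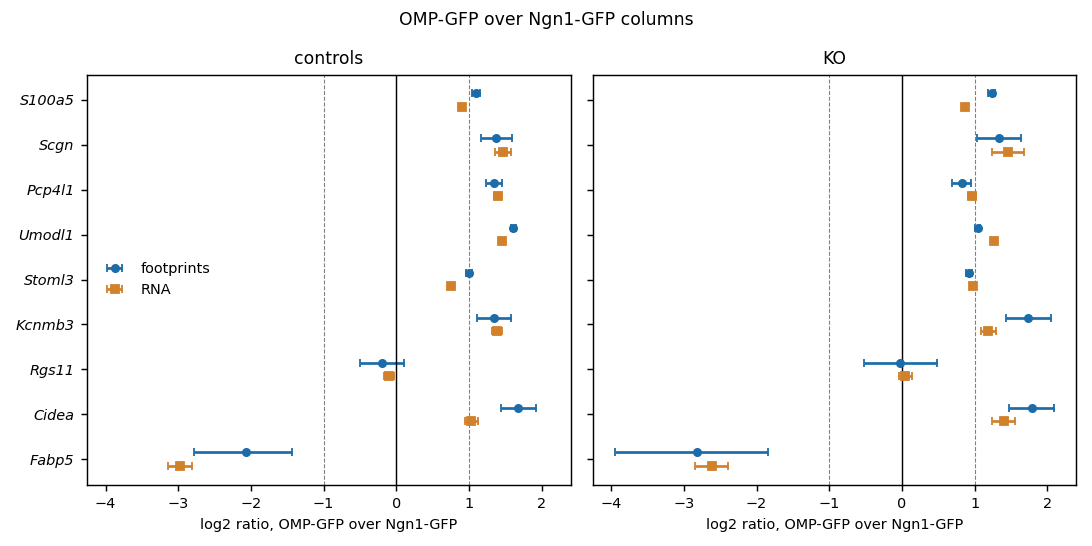
Log2 ratio of OMP-GFP over Ngn1-GFP cells for each gene in footprints and RNA, in controls and in KO, with 95% counting intervals and lines at 2-fold. The 7 genes other than Fabp5 and Rgs11 lie to the right of 0 in all 4 comparisons, Fabp5 lies at or below -2, and Rgs11 lies near 0.

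The KO cells, which share no column with that pair, gave 5 of 9 footprint ratios at least 2-fold higher in OMP-GFP cells (11.6% of 11766 genes measured were) and 1 at least 2-fold lower (18.7% were). Cidea was 3.44-fold higher, Kcnmb3 3.32-fold, Scgn 2.51-fold, S100a5 2.36-fold and Umodl1 2.06-fold, and Umodl1 lay at 0.81 with library size alone. Stoml3 (1.89-fold) and Pcp4l1 (1.77-fold) were below the line, Rgs11 was at -0.02 [-0.52, 0.48], and Fabp5 was 7.06-fold lower at -2.82 [-3.95, -1.84]. In RNA of KO cells 4 were at least 2-fold higher (4.87% of 15058 genes measured were), namely Scgn, Cidea, Umodl1 and Kcnmb3 at 2.75-, 2.63-, 2.41- and 2.28-fold, and Fabp5 was 6.15-fold lower (16.7% of genes measured were at least 2-fold lower). Rgs11 RNA stood at 0.05 in KO cells, and at -0.07 with library size alone. By this measure Rgs11 and Fabp5 went against the label of mature identity genes, and the other 7 were chosen with these ratios in view, so their direction is no check of it.

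The transduction cascade, a list of 12 genes including Omp, gives another yardstick for maturity. All 12 had a footprint ratio above 0 in controls, with a median of 0.82, and 3 were at least 2-fold higher: the chloride channel Ano2 at 1.24, the phosphodiesterase Pde1c at 1.17 and the channel subunit Cnga4 at 1.12. The lowest was Gnb1, a G-protein beta subunit, at 0.05. In KO cells the median was 0.82 and 4 of 12 were at least 2-fold higher, Pde1c at 1.504, Cnga4 and Gnal at 1.12 and Ano2 at 1.06. Cnga4, Gnal and the KO value of Ano2 are named after their values were seen. In RNA the cascade median was 1.07 in controls, with 7 of 12 at least 2-fold higher, and 0.91 in KO, with 4 of 12. The RNA medians of the 9 genes were close to these, at 1.03 with 5 of 9 in controls and 0.98 with 4 of 9 in KO. When columns were scaled to the cascade genes in place of TMM, only Cidea stayed above the 2-fold line in control footprints, at 1.04, and the median of the 9 was 0.71. On that scale the RNA ratio of S100a5 in controls was 0.02 and that of Stoml3 -0.13, while Pcp4l1, Scgn, Umodl1 and Kcnmb3 stood between 0.49 and 0.58. In KO footprints no gene reached 2-fold on that scale, and Pcp4l1 stood at -0.01.

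**Figure D3:**
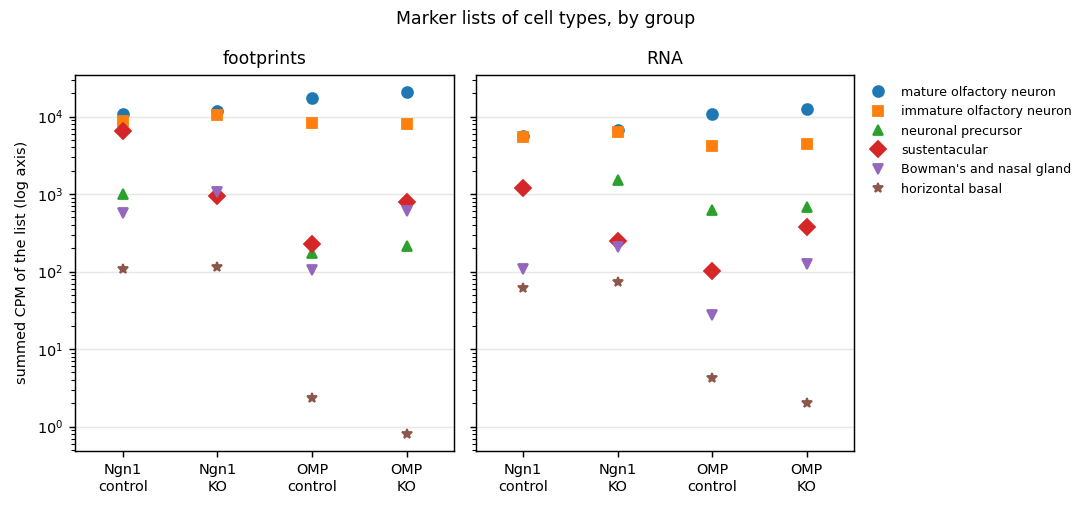
Summed footprint and RNA levels of cell type marker lists in the 4 groups, in TMM-scaled CPM on a log axis. The sustentacular sum is highest in the Ngn1-GFP control and higher in the OMP-GFP KO than in its control. The mature olfactory neuron sum of footprints is 10809, 11786, 17154 and 20964 CPM. The cascade list is not drawn, and its sum of footprints is 12620, 13459, 19594 and 23920 CPM.

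Of 20 other genes of mature neurons, 3 were at least 2-fold higher in footprints of OMP-GFP controls, with a list median of 0.63. They were the endosomal protein Nsg1 at 1.33, the adhesion molecule Kirrel2 at 1.19 and the synaptic scaffold Dlg2 at 1.12, the last 2 named after their values were seen. The transcription factor Lhx2 was lower at -1.75.

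The comparison of KO with control cells describes the same genes across groups that differ by the Cre allele as well as by the deletion of Mex3a. Rgs11 footprints were more than 2-fold lower in the KO of both populations with RNA nearly level, and Scgn was lower in both assays in both populations. S100a5 and Stoml3 footprints were somewhat higher in both KO groups, by 1.13- to 1.44-fold, though the Stoml3 ratio in OMP-GFP cells turned to -0.12 with cascade scaling. Umodl1, Pcp4l1 and Kcnmb3 differed between the populations, Cidea footprints had intervals that include 0, and Fabp5 was lower in both on few footprints. These KO ratios use the same columns as the ratios of OMP-GFP over Ngn1-GFP cells, so the 2 sets of ratios are not independent. The KO ratios of the 2 populations share no column. The genes were picked with both in view, so a like direction in the 2 populations is no check.

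In Ngn1-GFP cells 0 of 9 genes had footprints at least 2-fold higher in the KO (6.91% of 12554 genes measured did) and 1, Rgs11, at least 2-fold lower (11.5% did). In OMP-GFP cells 0 of 9 were at least 2-fold higher (7.63% of 11160 genes measured were) and 2, Rgs11 and Fabp5, at least 2-fold lower (8.98% were). The median log2 ratio of the 9 was -0.27 and -0.17, against 0.00 for all genes in both populations. Without the 3 genes with the fewest footprints the Ngn1-GFP median changed sign, to 0.17. In RNA no gene of the 9 was 2-fold apart in either direction. Of all genes measured in RNA, 4.58% were that much higher and 11.6% lower in the Ngn1-GFP KO, and 4.64% higher and 4.19% lower in the OMP-GFP KO. All of these counts rest on 1 column per group, with no test.

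For Rgs11 the footprint ratio was -1.24 [-1.66, -0.84] in Ngn1-GFP cells, 2.37-fold lower, and -1.07 [-1.495, -0.66] in OMP-GFP cells, 2.10-fold lower. Of genes with at least 100 footprints in the pair, 3.13% and 2.88% had a lower ratio. Its RNA was 1.16-fold lower at -0.21 [-0.29, -0.14] and 1.04-fold lower at -0.06 [-0.15, 0.03]. The KO columns of Rgs11 hold 65 and 74 footprints, against 237 and 143 in their controls.

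For Scgn the footprint ratio was -0.61 [-0.93, -0.30] in Ngn1-GFP cells, 1.53-fold lower, and -0.66 [-0.86, -0.46] in OMP-GFP cells, 1.58-fold lower. Its RNA was lower by 1.96-fold, at -0.97 [-1.18, -0.77], and by 1.97-fold, at -0.98 [-1.12, -0.83]. In OMP-GFP cells 1.56% of genes with at least 100 RNA reads in the pair had a lower RNA ratio, and in Ngn1-GFP cells 9.28% did. Scgn RNA was thus just short of the 2-fold line in both populations.

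**Figure D4:**
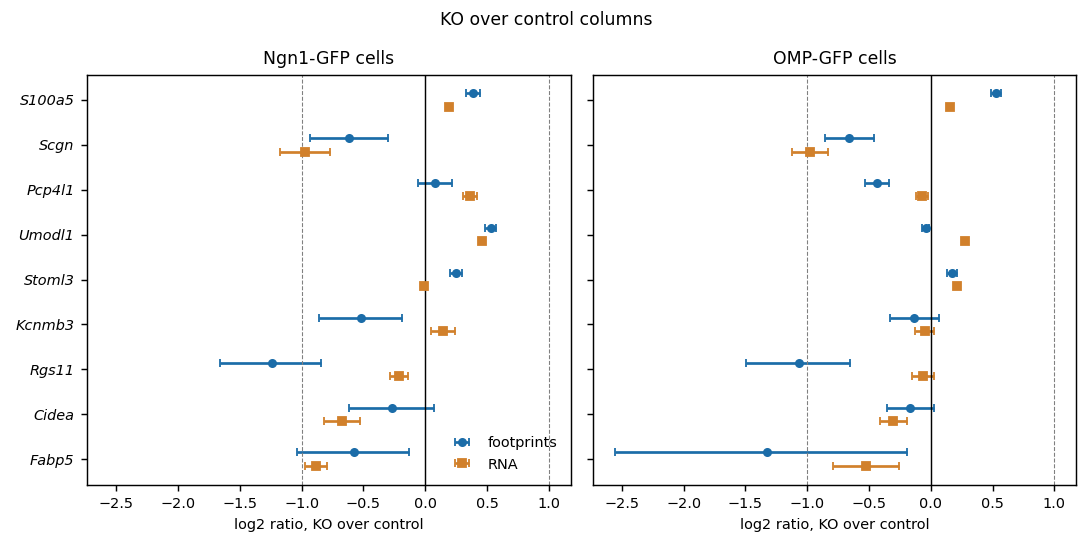
Log2 ratio of KO over control for each gene in footprints and RNA of the 2 populations, with 95% counting intervals and lines at 2-fold. Rgs11 has both footprint points beyond the lower line and both RNA points near 0, and Scgn has all 4 points to the left of 0.

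S100a5 footprints were 1.31-fold higher in the Ngn1-GFP KO, at 0.39 [0.33, 0.44], and 1.44-fold higher in the OMP-GFP KO, at 0.53 [0.49, 0.57]. Omp footprints were also higher in both, by 1.08-fold and 1.4-fold, so a rise in the OMP-GFP KO was not particular to S100a5. The S100a5 RNA ratios were smaller, 1.14- and 1.11-fold, and turned to -0.03 and -0.01 with cascade scaling. Stoml3 footprints were 1.19- and 1.13-fold higher, and Stoml3 RNA was level in Ngn1-GFP cells at -0.01 [-0.03, 0.00] and 1.16-fold higher in OMP-GFP cells. At these depths intervals are narrow, and they hold none of the spread between animals.

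Apart from Fabp5, whose interval is wide, the 2 populations differed most for Umodl1 and Pcp4l1. Umodl1 footprints were 1.44-fold higher in the Ngn1-GFP KO, at 0.53 [0.48, 0.57], above the ratio of 88.0% of genes with at least 100 footprints in the pair. In the OMP-GFP KO they were at -0.04 [-0.07, -0.01], while Umodl1 RNA was higher in both, by 1.37- and 1.21-fold. Pcp4l1 footprints were level in the Ngn1-GFP KO, at 0.08 [-0.06, 0.22], and lower by 1.35-fold in OMP-GFP cells, at -0.44 [-0.54, -0.34]. Pcp4l1 RNA was 1.28-fold higher in the former and at -0.07 [-0.12, -0.02] in the latter. The difference of the 2 footprint effects, OMP-GFP minus Ngn1-GFP, was -0.57 [-0.62, -0.52] for Umodl1 and -0.52 [-0.69, -0.35] for Pcp4l1. It was 0.39 [0.01, 0.76] for Kcnmb3 0.14 [0.07, 0.21] for S100a5 and -0.08 [-0.14, -0.02] for Stoml3, and for Scgn, Rgs11, Cidea and Fabp5 its interval included 0. No gene of the 9 had effects 2-fold apart, where 12.9% of 10845 genes measured had a higher and 11.8% a lower effect by that much in OMP-GFP cells. With 1 column per group the difference between populations was not tested.

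Kcnmb3 footprints of the Ngn1-GFP KO were 1.43-fold lower, at -0.52 [-0.86, -0.19], with RNA at 0.14, and in the OMP-GFP KO both were near 0, at -0.13 [-0.33, 0.06] and -0.05. Cidea footprints were at -0.27 [-0.62, 0.07] and -0.17 [-0.36, 0.03], intervals that include 0, and Cidea RNA was lower by 1.59-fold in Ngn1-GFP and by 1.23-fold in OMP-GFP cells. Fabp5 was the gene with the fewest footprints, and its footprint ratios of -0.58 [-1.04, -0.13] and -1.32 [-2.56, -0.19] have wide intervals. Its RNA was lower by 1.84-fold in Ngn1-GFP and by 1.44-fold in OMP-GFP cells. The fatty acid-binding protein was thus lower in the KO in all 4 ratios, with 23 and 10 footprints behind the last footprint ratio.

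No gene of the cascade list was 2-fold apart in footprints between KO and control in either population, and the list medians were 0.14 and 0.24. Its lowest and highest footprint ratios were -0.205 for Gnb1 and 0.38 for Cnga4 in Ngn1-GFP cells. In OMP-GFP cells they were -0.21 for Cngb1 and 0.58 for Pde1c. Of the 20 other mature neuron genes, 1 was at least 2-fold lower in footprints of the Ngn1-GFP KO, the synuclein Sncg, with 18 and 3 footprints and named after its value was seen. None of the 19 with enough footprints was 2-fold apart in footprints in the OMP-GFP KO, and the footprint medians of the list were 0.10 and 0.19. Among its genes with a mean of 5 CPM, Faim2 was lowest at -0.29 and Nrp1 highest at 0.504 in Ngn1-GFP cells. In OMP-GFP cells Emx2 was lowest at -0.305 and Nsg1 highest at 0.84. In RNA, Sncg was lower in both KO groups, by 2.87-fold in Ngn1-GFP and 2.58-fold in OMP-GFP cells, with 151, 17, 74 and 24 reads. Among 3 genes of receptor transport, Reep6 also had lower footprints in both KO groups without lower RNA. It had 133, 25, 71 and 23 footprints and 1886, 846, 974 and 1024 RNA reads. Its footprint ratios, KO over control, were -1.79 in Ngn1-GFP and -1.75 in OMP-GFP cells, while its RNA stood at 0.47 and 0.33.

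Footprints per RNA read, the footprint CPM over the RNA CPM of a gene, set the ribosome load beside the amount of message. The genes differed widely in it. Scgn had the most in every column, 3.69 [3.25, 4.19], 4.73 [3.80, 5.89], 3.47 [3.13, 3.84] and 4.32 [3.79, 4.94]. These values lay above 92.9% to 96.1% of the genes with at least 20 counts in both assays of a column. Rgs11 stood at 0.628, 0.307, 0.589 and 0.293, Fabp5 at 0.357, 0.442, 0.669 and 0.385 and S100a5 at 0.628, 0.720, 0.717 and 0.929. The medians of all genes with that many counts were 1.09, 1.06, 1.03 and 1.03, and 5, 5, 6 and 6 of the 9 genes were above them. Of the 3 abundant messages, S100a5 lay below the median in every column, Umodl1 above it in every column and Stoml3 above it in 3 of the 4.

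In the Ngn1-GFP control the order was Scgn 3.69, Umodl1 2.61, Pcp4l1 2.29, Cidea 1.58, Kcnmb3 1.33, Stoml3 0.968, S100a5 0.628, Rgs11 0.628 and Fabp5 0.357. The intervals of Cidea and Kcnmb3 overlap, as do those of S100a5 and Rgs11. Umodl1 stood at 2.61, 2.74, 2.91 and 2.34 over the 4 columns, Pcp4l1 at 2.29, 1.88, 2.21 and 1.71, and Cidea at 1.58, 2.08, 2.47 and 2.72. Kcnmb3 was at 1.33, 0.840, 1.29 and 1.22 and Stoml3 at 0.968, 1.16, 1.15 and 1.12. The ratio is a comparison of 2 library types, and it does not give the number of ribosomes on a message.

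**Figure D5:**
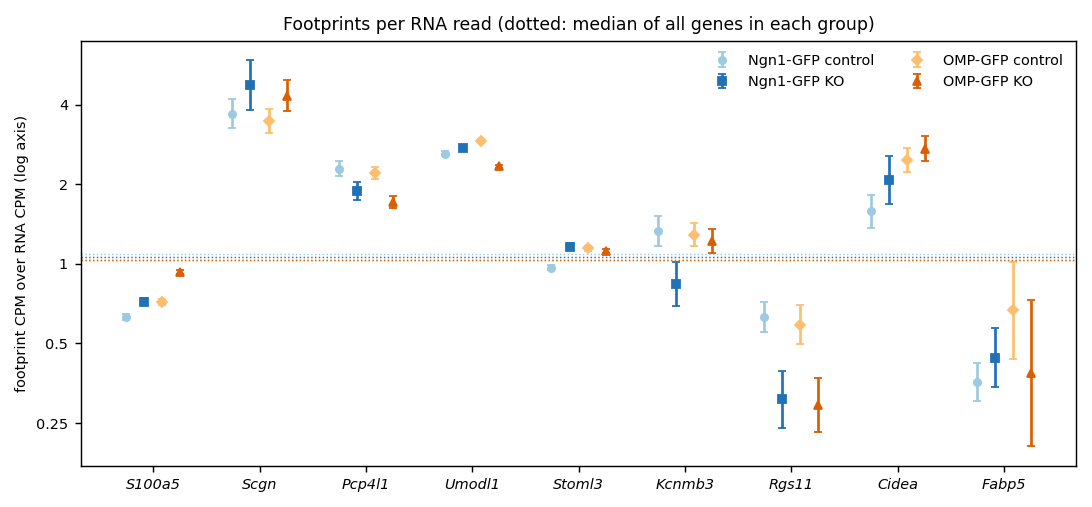
Footprints per RNA read of the 9 genes in the 4 groups, TMM-scaled CPM over CPM on a log axis with approximate 95% counting intervals. The median is that of all genes with at least 20 counts in both assays. Scgn is highest in every column, and the KO points of Rgs11 lie at 0.307 and 0.293 with its controls at 0.628 and 0.589.

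Between KO and control, footprints per RNA read of Rgs11 were 2.04-fold lower in Ngn1-GFP cells, at -1.03 [-1.43, -0.63], and 2.01-fold lower in OMP-GFP cells, at -1.01 [-1.42, -0.59]. Rgs11 was the only gene of the set at least 2-fold lower in either population, where 11.1% of 12530 and 9.55% of 11124 genes measured were, and none was 2-fold higher, where 8.44% and 7.74% were. With cascade scaling the Ngn1-GFP ratio of Rgs11 was -0.90, short of 2-fold. Kcnmb3 was 1.58-fold lower in Ngn1-GFP cells, at -0.66 [-0.999, -0.33], and at -0.08 in OMP-GFP cells. Pcp4l1 was lower in both, at -0.28 [-0.43, -0.14] and -0.37 [-0.48, -0.26], and S100a5 was higher in both, at 0.20 and 0.37. Umodl1 was at 0.07 in Ngn1-GFP and 1.25-fold lower in OMP-GFP cells, at -0.32 [-0.35, -0.28]. Reep6, set beside Rgs11 above, stood at -2.26 and -2.08.

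Between OMP-GFP and Ngn1-GFP cells no gene of the 9 was 2-fold apart in footprints per RNA read. Of all genes measured, 6.83% were that much higher and 10.9% lower in controls, and 10.7% and 14.3% in KO. Cidea was 1.57-fold higher in OMP-GFP controls, at 0.65 [0.40, 0.91], and Fabp5 at 0.90 [0.25, 1.56], on few footprints. The ratios of the other 7 in controls lay between -0.09 and 0.24. The higher footprints of the 7 genes in OMP-GFP cells came with RNA ratios within 1.57-fold of them.

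The genes closest in pattern to the 9 were ranked by the root mean square difference from their mean profile over the 4 footprint and 4 RNA columns, each centred within its assay, among 9358 genes. They were Ahcyl2 (0.0491), Bbs7 (0.0502), Magi2 (0.0548), Kcnn2 (0.0630) and Kif9 (0.0631) in log2 units. Bbs7 encodes a subunit of the BBSome, which carries proteins into cilia, Kcnn2 a small-conductance calcium-activated potassium channel, Kif9 a kinesin and Magi2 a membrane scaffold. The 9 genes themselves lay between 0.226 for Stoml3 and 1.58 for Fabp5 from that mean, so the mean describes none of them closely.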

How the data were processed

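The 9 genes and all gene lists were chosen with earlier results of these data known. Per the submitters' processing notes, reads were handled with FastQC, cutadapt and STAR on the mm10 mouse genome, without versions. Cells were, per the labels' protocols, dissociated with papain and sorted, and RNA libraries were made with a stranded low-input SMARTer Pico kit. The deposited table has 22553 genes and 24 value columns. The deposited counts of footprints and RNA cover coding sequences, and a coding length in bases stands beside them, per the file headers. The authors deposited footprint RPKM, RNA TPM and a translational efficiency ratio. For S100a5 in the Ngn1-GFP control they were 4338, 8040 and 0.919, so the efficiency is not the RPKM divided by the TPM. The sources used here do not say how 2 libraries became 1 column, and no replicate test could be made.

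Scaling was by TMM, with edgeR 4.0.16 under R 4.3.3, after filterByExpr with a minimum count of 10 and total of 15, which kept 13479 genes for footprints and 16388 for RNA. A ratio needed 20 counts in the pair of columns, and at least 2-fold apart counted as called. The 95% intervals of footprint and RNA ratios are exact and binomial, given the sum of the pair (scipy 1.17.1), while those of footprints per RNA read and of differences of effects are approximate. Where a count was 0, 3 stood in for it. In counts simulated with counting error alone, the intervals covered the truth for 193 of 200 genes made to differ in footprints. Those counts hold only the error that the intervals assume, so this is no check for spread between libraries. All 9 genes, Mex3a and the 5 nearest profiles are named. The highest and lowest gene of a list with a mean of 5 CPM are named for some comparisons only, beside other genes. Also tried were size factors of DESeq2 1.42.0, library size, TMM on other gene sets, cascade scaling, other filters and leaving out the 3 genes with the fewest footprints. TMM without genes that stand apart in 1 column was added after seeing the data. The driver of the Cre allele is not reported here.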

Additional observations from a re-analysis of the deposited data

Results flagged for a closer look

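In 3 cases the KO ratios of a gene had opposite signs in the 2 populations and neither interval included 0. The difference, OMP-GFP minus Ngn1-GFP in log2 units, was -0.57 for Umodl1 footprints (0.53 in Ngn1-GFP and -0.04 in OMP-GFP cells). It was -0.43 for Pcp4l1 RNA (0.36 and -0.07) and -0.39 for Umodl1 footprints per RNA read (0.07 and -0.32). The intervals cover counting error alone, each group has 1 column, and the differences were not tested. The Umodl1 ratio of 0.07 turned to -0.05 with library size as the only scaling.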

How the results depend on the processing

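No paired analysis was possible because the columns carry no replicate numbers and each group has 1 column. Of 108 ratios of the 9 genes, 108 kept their direction with DESeq2 size factors, with TMM on a subset of genes, without genes that stand apart, without a filter and with at least 50 counts in 2 columns, 104 with library size alone and 96 with cascade scaling. Leaving out Fabp5, Rgs11 and Cidea, which have the fewest footprints, gave medians of 0.17 (footprints, KO over control, Ngn1-GFP), 1.14 (footprints, OMP-GFP over Ngn1-GFP, KO), 0.17 and 0.051 (RNA, KO over control, Ngn1-GFP and OMP-GFP), 1.39 and 1.08 (RNA, OMP-GFP over Ngn1-GFP, controls and KO), 0.13 (footprints per RNA read, KO over control, Ngn1-GFP) and 0.059 (the same, OMP-GFP over Ngn1-GFP, controls). All counts of genes at least 2-fold lower were then 0, which follows from Rgs11 and Fabp5 being the genes counted. Cascade scaling moved the median to -0.45 for footprints, KO over control, in OMP-GFP cells, and to 0.71 and 0.21 for footprints, OMP-GFP over Ngn1-GFP, in controls and KO, with 1 and 0 genes at least 2-fold higher. It moved RNA medians to -0.23 and -0.22 for KO over control in Ngn1-GFP and OMP-GFP cells, with 2 and 1 genes at least 2-fold lower, and to 0.14 and 0.15 for OMP-GFP over Ngn1-GFP, with 0 genes at least 2-fold higher in either. For footprints per RNA read it gave 0.32 for the Ngn1-GFP KO, with 0 genes lower, and 0.41 for OMP-GFP over Ngn1-GFP controls, with 1 gene higher. Library size alone gave 1.13 and 0.81 for footprints of OMP-GFP over Ngn1-GFP in controls and KO, 0.042 for RNA of the Ngn1-GFP KO, 0.86 for RNA of OMP-GFP over Ngn1-GFP in KO, and 0.074 and -0.014 for footprints per RNA read of the Ngn1-GFP KO and of OMP-GFP over Ngn1-GFP controls. It shifted the median of all genes by -0.22 and -0.23 in the first pair of these comparisons. A minimum of 50 counts in 2 columns gave 0.97 for footprints of OMP-GFP over Ngn1-GFP in KO, and -0.052 for RNA of the Ngn1-GFP KO with 1 gene, Scgn, at least 2-fold lower. By the authors' deposited efficiency ratio the medians of the 9 genes in the 4 groups were 1.94, 1.57, 1.67 and 1.57. They stand in place of 1.33, 1.16, 1.29 and 1.22 footprints per RNA read. The order of the 9 genes in each column was the same by either ratio. No median of all genes was taken on the authors' scale, so the higher medians do not show higher efficiency. Why the values under the other settings moved was not tested beyond the change of scale itself. Counts limit Fabp5 most, with 23 and 10 footprints in OMP-GFP cells.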
